A study of Mus musculus with 40 samples.

Results

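Fatty acids are burned in mitochondria by a short chain of enzymes, and 9 of their genes were followed here across the ovariectomised mouse mammary gland. The genes were Cpt1a, Cpt1b, Cpt2, Acadl, Acadm, Acadvl, Hadha, Hadhb and Pdk4, taken by gene symbol from tables of 47729 gene rows. All 9 symbols were found and all 9 passed the filter on low counts.

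Long-chain fatty acids enter the mitochondrion as carnitine esters. Carnitine palmitoyltransferase 1 on the outer membrane makes the ester and is the controlled step, held back by malonyl-CoA, and Cpt2 on the inner membrane returns the fatty acid to coenzyme A. Acyl-CoA dehydrogenases then open each round of beta-oxidation according to chain length, and the trifunctional protein of Hadha and Hadhb carries long chains through the rest of the round. Pdk4 phosphorylates and shuts down pyruvate dehydrogenase, so that less pyruvate from glucose is turned into acetyl-CoA. In adipose tissue, the bulk of the resting mammary gland, brown fat is known for high levels of these enzymes, and several of the genes are targets of the fatty acid receptors of the PPAR family.

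RNA came from inguinal mammary glands, freed of the lymph node, of Balb/cJ mice ovariectomised at 21 days of age and rested for 7 days. Every group carried the ovariectomy and ate the same AIN 93G based diet. The groups were mice given 200 nM estrogen in the drinking water for 60 h or 84 h, mice whose diet held 2.7% of fat as conjugated linoleic acid (CLA, a family of isomers of linoleic acid) for 108 h or 132 h, and mice on the plain control diet at each of those 4 times. Each of the 8 groups held 5 mice, called biological replicates in the labels, so 40 libraries in all. Levels are given as CPM (counts scaled to library size, after TMM scaling of all 40 libraries), or, where genes are set against each other, as the authors' RPKM (reads scaled to library size and gene length).

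Library totals ran from about 18183700 to 40026800 counts. The glands were rich in adipocyte RNA: the 12 adipocyte markers summed to 14915 to 44241 CPM per library, against 11.5 to 878 CPM for the 12 mammary epithelial markers. In bulk tissue, fewer cells of a type and less RNA per cell cannot be told apart. Markers of skin and hair averaged above 1 CPM (a mean log2 CPM over 0) in 11 libraries, namely 1 estrogen library at 60 h, 3 estrogen libraries at 84 h, and 1, 3 and 3 controls at 84, 108 and 132 h. No CLA library was among them. Skeletal muscle markers stood apart in control mouse 5 at 84 h and control mouse 2 at 132 h. All 10 estrogen libraries had title numbers in a run of their own that held no control, so estrogen and that run cannot be told apart.

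In the authors' RPKM, the dehydrogenases were the most abundant members and the carnitine palmitoyltransferases the least. Over the 40 libraries, mean levels in RPKM were 305 ± 58.8 for Acadl, 208 ± 43.6 for Acadvl, 163 ± 35.9 for Acadm, 146 ± 29.6 for Hadha and 137 ± 67.6 for Pdk4 (SD, n = 40). The lower levels were 132 ± 32.1 for Hadhb, 86.5 ± 11.3 for Cpt2, 16.8 ± 9.50 for Cpt1a and 9.22 ± 4.57 for Cpt1b. In RPKM, Acadl lay above Acadvl, Acadvl above Acadm, Hadhb above Cpt2 and Cpt2 above Cpt1a in 40 of 40 libraries. Hadha lay above Hadhb in 39 of 40 libraries. Pdk4 had no fixed place beside them: Hadha lay above it in 26 libraries, and it lay above Hadhb in 20. The order depends on the gene lengths behind the RPKM, which are not given. Mean CPM was 892 for Acadm (3913 exonic bases in GENCODE M21) and 525 for Acadvl (2686 bases). It was 283 for Cpt2 (2391 bases) and 462 for Hadhb (6595 bases). Per annotated exonic base, mean Acadm was thus above Acadvl and mean Cpt2 above Hadhb.

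Under CLA, Cpt1a moved against the others of the 9 genes, among them Cpt1b, which also encodes an outer-membrane enzyme. Cpt1a, the form that is predominant in liver, rose in CLA-fed glands at both times, while the enzymes downstream of it fell. Of the 9 genes, 1 rose and 7 fell at 108 h, where 47.9% of all 17248 genes tested changed, 24.9% higher and 23% lower. At 132 h, 1 rose and 8 fell, where 56% of 17180 genes changed, 27% higher and 29% lower. Over the 9 genes the median log2 fold change was −0.49 at 108 h and −0.84 at 132 h, against −0.01 and −0.03 over all genes tested. CLA and control groups did not overlap for 6 of the 9 genes at 108 h and 5 at 132 h, against 32.2% and 36.8% of all genes tested.

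**Figure D1:**
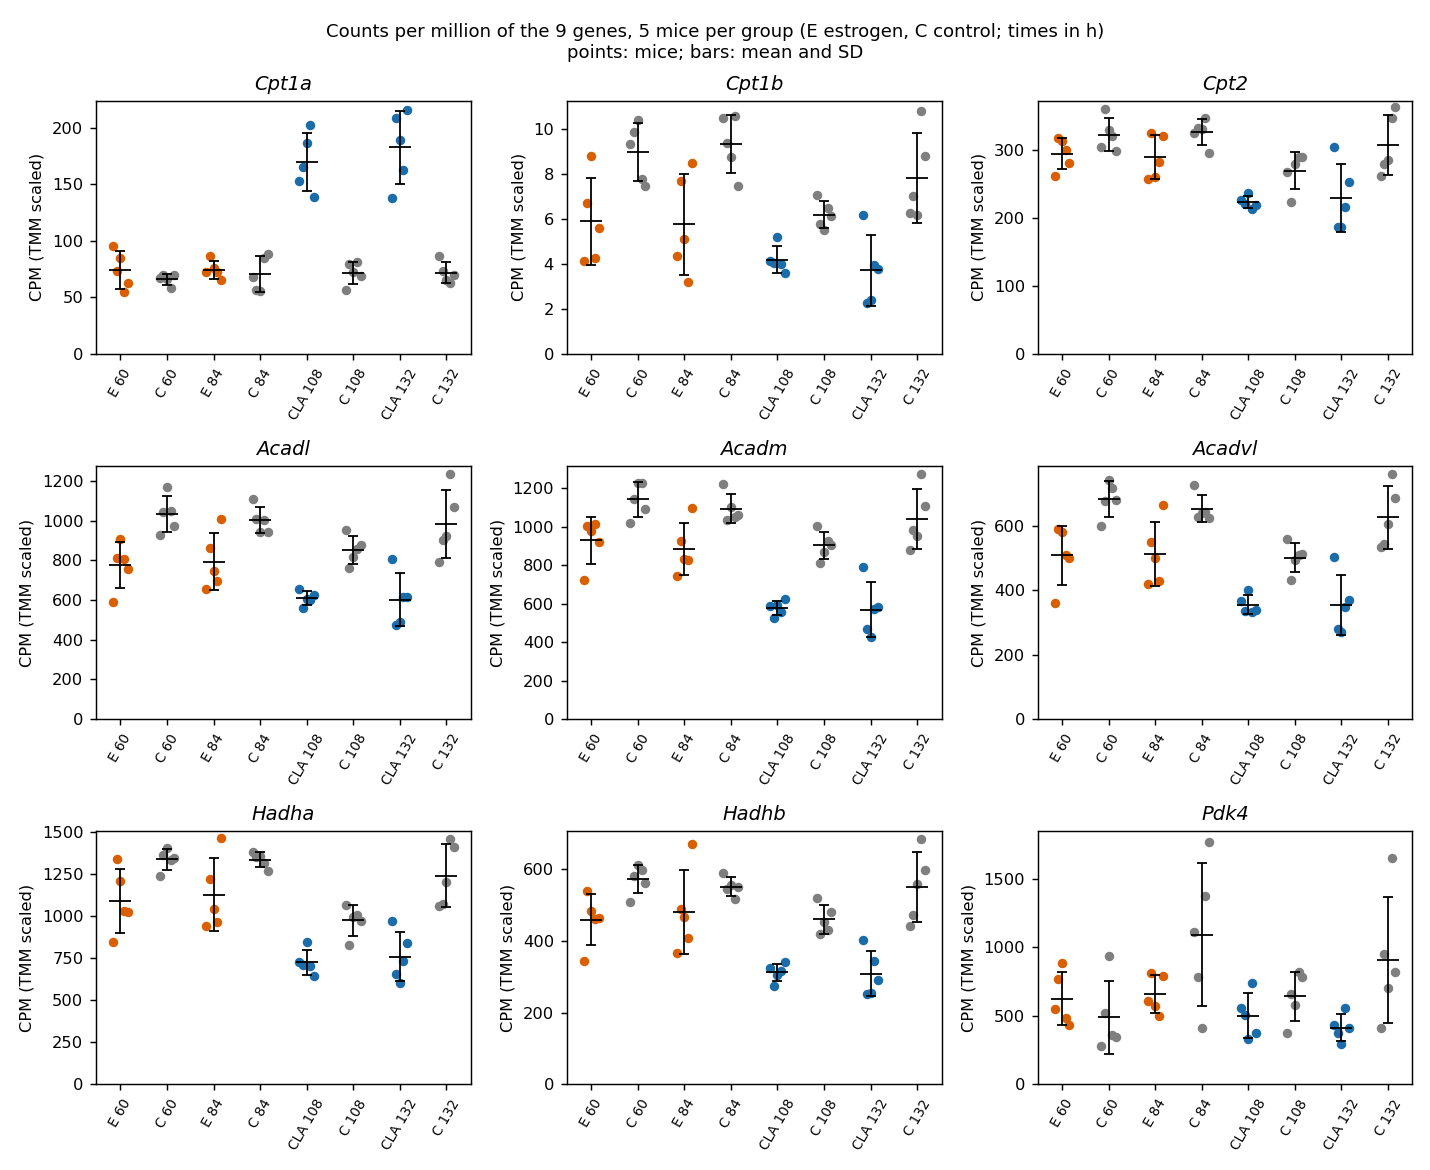
CPM of each gene in each mouse (points; vertical axes start at 0), with group means and SD (bars), for estrogen (E), CLA and control (C) groups, 5 mice each, with times in hours. CLA mice lie above their controls for Cpt1a and mostly below them for the other genes.

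Cpt1a measured 153, 166, 187, 203 and 139 CPM in CLA-fed mice at 108 h, against 56.3, 79.0, 72.3, 81.4 and 68.5 CPM in controls. Every CLA mouse lay above every control. At 132 h the values were 137, 208, 189, 163 and 216 CPM with CLA and 86.3, 73.6, 65.7, 62.7 and 69.9 CPM in controls, again without overlap. The log2 fold change was 1.24 ± 0.14 (SE) at 108 h (adjusted p = 6.34e-07, edgeR) and 1.34 ± 0.14 at 132 h (adjusted p = 2.46e-07), or 237% and 252% of the control level. Across the other groups the means lay close together: those with estrogen were 74.2 ± 16.5 CPM at 60 h and 74.5 ± 8.00 CPM at 84 h, and the 4 control means lay between 66.1 and 71.7 CPM.

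The stretch upstream of a Cpt1a exon start is shown because this gene went against the others. It lies at chr19:3323051-3323284 on the plus strand of GRCm38.p6 (RefSeq promoter table) and inside the annotated span of the gene (chromosome 19, 3322334 to 3385733). Capitals mark the nuclear receptor motif AGGTCA, read on the opposite strand, and a pair of GC boxes, GGGCGG on the opposite strand.
Cpt1a: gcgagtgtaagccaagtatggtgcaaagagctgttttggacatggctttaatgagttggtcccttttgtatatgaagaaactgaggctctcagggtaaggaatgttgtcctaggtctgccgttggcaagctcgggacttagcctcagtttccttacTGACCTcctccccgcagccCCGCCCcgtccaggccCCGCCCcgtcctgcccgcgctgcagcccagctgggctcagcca
Searched on both strands, AGGTCA was present in 16.3% and GGGCGG in 35.7% of 32851 mouse promoter windows (250 bases before to 50 after a gene start), and in 3 and 5 of the 8 windows found for the 9 genes. The direct repeat of AGGTCA with 1 base between the copies (DR1), to which PPAR and RXR bind, was in 0.0396% of all windows and in 0 of these 8. So rare an exact match would be absent from most sets of 8 windows, so this count cannot show whether PPAR binds these genes. The NRF1 motif was in 6.23% and in 0 of 8. No marked motif overlaps another in the letters shown.

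Cpt1b, the muscle-type outer-membrane enzyme, changed in the opposite direction to Cpt1a. It measured 4.12, 4.05, 5.17, 4.01 and 3.59 CPM in CLA-fed mice at 108 h, against 7.08, 5.79, 5.51, 6.48 and 6.11 CPM in controls. At 132 h it measured 6.19, 2.28, 2.37, 3.93 and 3.79 CPM with CLA, against 6.26, 7.04, 6.18, 10.8 and 8.81 CPM in controls. The groups did not overlap at 108 h and touched at 132 h, where CLA mouse 1 reached the level of the lowest controls. The log2 fold change was −0.56 ± 0.17 (SE) at 108 h (adjusted p = 0.0114) and −1.09 ± 0.28 at 132 h (adjusted p = 0.00241). Leaving out the libraries with skin signal removed 3 of the 5 controls at each of these times. The call at 108 h was then lost (log2 fold change −0.52, adjusted p = 0.111), while that at 132 h held. The counts of Cpt1b are low for its RPKM, with 0.704 CPM per RPKM against 2.52 to 7.33 for the other 8 genes. In GENCODE M21, 2744 of its 3372 exonic bases (chromosome 15, 89416405 to 89425863) are shared on the same strand with Gm44502, and reads of the 2 genes may not be told apart.

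The balance of the outer-membrane enzymes differed between groups. The RPKM ratio of Cpt1a to Cpt1b averaged 6.75 ± 1.04 (range 5.64 to 8.26) with CLA at 108 h and 1.43 ± 0.32 (0.922 to 1.77) in controls. At 132 h it averaged 10.1 ± 5.56 (3.12 to 16.2) with CLA and 1.12 ± 0.40 (0.573 to 1.62) in controls. No CLA mouse came within the range of the controls of its time, though the ratio of CLA mouse 1 at 132 h was below the highest estrogen ratios, 3.61 at 60 h and 3.40 at 84 h. With estrogen the ratio was 1.81 ± 1.04 against 0.752 ± 0.14 in controls at 60 h, and 1.95 ± 1.04 against 0.796 ± 0.30 at 84 h (SD, n = 5 each). Cpt1a exceeded Cpt1b in 10 of 10 CLA libraries, 8 of 10 estrogen libraries and 8 of 20 control libraries in RPKM. The order depended on the table: in CPM per kilobase of annotated exon, Cpt1a exceeded Cpt1b in 40 of 40 libraries. On that scale the ratio averaged 17.9 ± 2.58 with CLA and 5.16 ± 1.01 in controls at 108 h, and 25.7 ± 12.4 with CLA and 4.29 ± 1.33 in controls at 132 h, again without overlap.

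**Figure D2:**
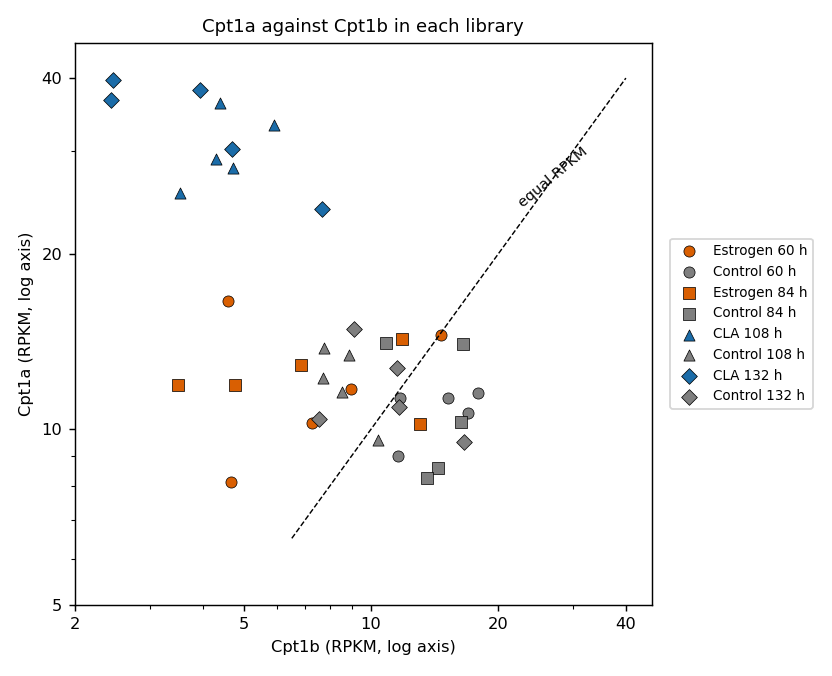
Cpt1a against Cpt1b in RPKM (both axes logarithmic), with 1 point per mouse; color gives the treatment, shape the time, and the dashed line equal levels. The CLA mice lie apart on the Cpt1a axis, at 23.9 RPKM or more against at most 16.6 RPKM in the other mice, and overlap with estrogen mice on the Cpt1b axis.

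Cpt2, the inner-membrane partner, showed the smallest fall with CLA. It measured 226, 220.2, 237, 213 and 219.6 CPM with CLA at 108 h, against 268, 224, 279, 289.5 and 289.8 CPM in controls. At 132 h the values were 305, 187, 187, 217 and 253 CPM with CLA and 263, 279.5, 285, 347 and 364 CPM in controls. The groups overlapped at both times, CLA mouse 1 at 132 h lying above 3 controls. Its log2 fold changes were −0.28 ± 0.07 (SE; adjusted p = 0.00352) and −0.43 ± 0.12 (adjusted p = 0.00577). Per library, the CPM ratio of Cpt1a to Cpt2 was 0.760 ± 0.12 with CLA and 0.268 ± 0.05 in controls at 108 h, and 0.836 ± 0.26 with CLA and 0.239 ± 0.06 in controls at 132 h.

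Among the 3 acyl-CoA dehydrogenases of the 9 genes, Acadm, which takes medium chains, had the lowest fold change. It measured 588, 528, 592, 555 and 623 CPM in CLA-fed mice at 108 h, against 1005, 812, 868, 927 and 904 CPM in controls. At 132 h it measured 792, 466, 428, 574 and 582 CPM with CLA, against 880.4, 983, 951, 1274 and 1109 CPM in controls. All CLA mice lay below all controls at both times. The log2 fold change was −0.65 ± 0.09 at 108 h (adjusted p = 5.79e-06) and −0.88 ± 0.14 at 132 h (adjusted p = 3.14e-05), which left 63.9% and 54.2% of the control level.

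Acadl, for long chains, measured 655, 557, 604, 601 and 624 CPM with CLA at 108 h and 951, 761, 817, 858 and 878 CPM in controls, without overlap. At 132 h it measured 808, 476, 492, 617 and 614 CPM with CLA and 792, 902, 923, 1238 and 1069.5 CPM in controls. CLA mouse 1 lay above the lowest control at this time. The log2 fold changes were −0.49 ± 0.09 (adjusted p = 0.000243) and −0.72 ± 0.15 (adjusted p = 0.000308). Acadvl, for very long chains, fell without overlap at both times, to means of 355 ± 29.9 CPM with CLA against 501 ± 45.2 CPM in controls at 108 h, and 354 ± 93.1 CPM against 627 ± 97.4 CPM at 132 h (SD, n = 5 each). Its log2 fold changes were −0.50 ± 0.11 (adjusted p = 0.000688) and −0.84 ± 0.15 (adjusted p = 0.000135). In GENCODE M21, 1151 of its 2686 exonic bases overlap the opposite-strand gene Dvl2. The libraries were strand-specific per the labels, but whether the counting used strand is not given in the sources used here.

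Hadha and Hadhb encode the alpha and beta subunits of the trifunctional protein and sit head to head. Hadha ends its annotated span at 30155162 on the minus strand of chromosome 5 and Hadhb starts at 30155248 on the plus strand, leaving 85 bases between them. That stretch, chr5:30155163-30155247 of GRCm38.p6, is shown on the plus strand because both genes start from its ends, with capitals on its 2 GC boxes.
Hadha-Hadhb: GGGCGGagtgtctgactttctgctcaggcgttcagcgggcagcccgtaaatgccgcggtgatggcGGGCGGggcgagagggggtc
Hadha measured 726, 706, 847, 699.9 and 646 CPM with CLA at 108 h, against 1067, 827, 996, 1005 and 969 CPM in controls, where 1 CLA mouse lay above the lowest control. Hadhb measured 323, 275, 306, 317 and 341 CPM with CLA at 108 h, against 520.2, 419, 452, 431 and 482 CPM in controls, with no overlap. At 132 h all CLA mice lay below all controls for both genes, at 603 to 969 CPM against 1058 to 1457 CPM for Hadha, and 253 to 402 CPM against 442 to 685 CPM for Hadhb. The log2 fold changes of Hadha were −0.43 ± 0.10 (adjusted p = 0.00184) and −0.72 ± 0.14 (adjusted p = 0.000169). Those of Hadhb were −0.56 ± 0.09 (adjusted p = 6.69e-05) and −0.85 ± 0.15 (adjusted p = 0.00011). The CPM ratio of Hadha to Hadhb had group means between 2.11 and 2.47 in all 8 groups.

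In the control groups and with CLA at 108 h, Pdk4, the kinase that inhibits pyruvate dehydrogenase, had the largest SD relative to its mean CPM. In the other groups it was less variable than Cpt1b. It measured 556, 509.7, 328, 738 and 376 CPM with CLA at 108 h, against 371, 663, 578, 822 and 784 CPM in controls. The groups overlapped, and the log2 fold change of −0.36 ± 0.32 (adjusted p = 0.372) had a 95% interval of −0.98 to 0.26. At 132 h it measured 436, 375, 292, 556 and 409.7 CPM with CLA, against 413, 949, 706, 1653 and 823 CPM in controls. It fell at this time, by 1.15 ± 0.35 on the log2 scale (adjusted p = 0.00905), although 2 CLA mice lay above the lowest control. The 219 bases before the annotated start of Pdk4, chr6:5496310-5496528 on the minus strand of GRCm38.p6, are shown as those of the gene whose pattern parted from the other 8, with capitals on an NF-Y box, CCAAT on the opposite strand.
Pdk4: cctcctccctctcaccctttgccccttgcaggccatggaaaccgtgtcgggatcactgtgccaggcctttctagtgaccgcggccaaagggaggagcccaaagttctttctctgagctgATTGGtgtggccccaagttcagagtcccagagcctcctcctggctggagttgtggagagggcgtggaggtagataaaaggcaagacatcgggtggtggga
CCAAT was present in 37.4% of all promoter windows and in 2 of the 8 windows of these genes.

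The numbers in the titles split the CLA mice and their controls into runs A, B and C, whose meaning the labels do not give. The direction of all 9 genes was the same within each run that gave a value. At 108 h, 4 genes passed within run A (3 CLA and 2 control mice) and 8 within run C (2 CLA and 3 control mice). At 132 h, Cpt1a alone of the 9 genes passed within run A (3 CLA and 2 control mice), and run C held 1 mouse of each group and gave no value. The share of all genes passing within a run was not computed, so these counts have no background to stand against. The log2 fold change of Cpt1a was 1.31 in run A and 1.20 in run C at 108 h, and 1.13 in run A at 132 h. Run B at 132 h held 1 CLA mouse, so that its value of 1.35 rests on the spread of its 2 controls alone. Leaving out any single library kept 8 calls at 108 h and 9 at 132 h. Without the libraries with skin signal the counts were 7 and 9. Without the 2 libraries rich in muscle markers, 9 genes passed at 132 h.

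The differences did not pass a test between the times. In a fit of all 40 libraries, 0 of 9 genes had a CLA effect at 132 h that differed from that at 108 h by edgeR, with 0 at an unadjusted p under 0.05 and 0 by DESeq2 (0% of 17852 genes called). The estimates were negative for the 8 genes other than Cpt1a, from −0.15 ± 0.15 (SE) for Cpt2 to −0.77 ± 0.48 for Pdk4.

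**Figure D3:**
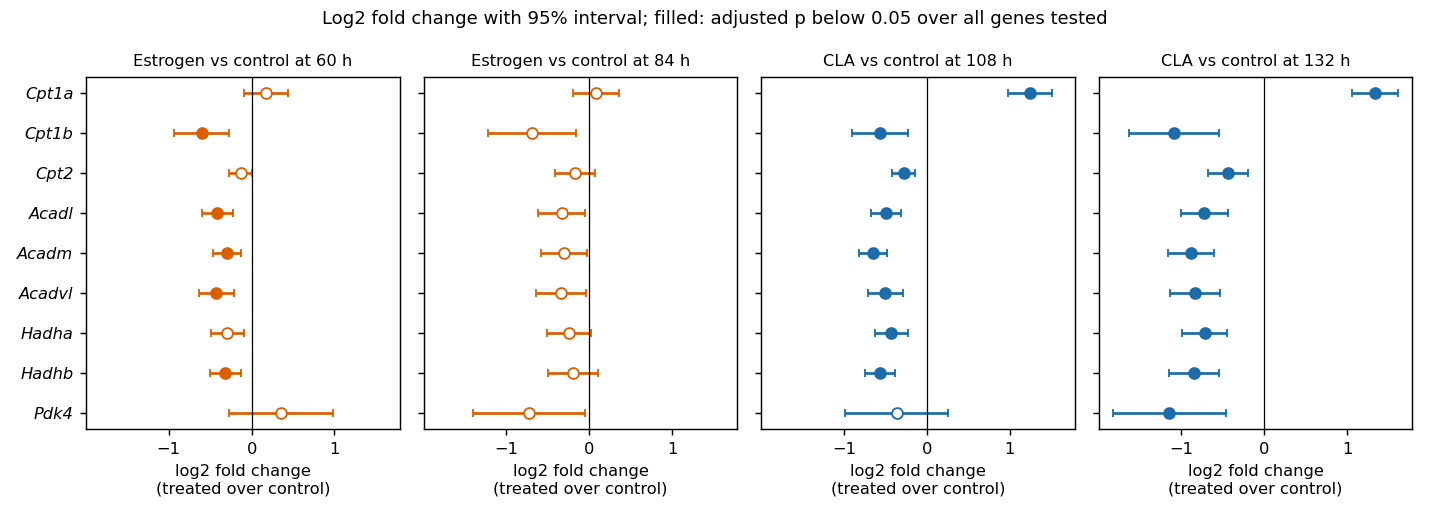
Log2 fold change of treated over control (points) with 95% intervals (bars) for each gene in the 4 treatment comparisons. Filled points passed the adjusted p threshold of 0.05 over all genes tested: 5 with estrogen at 60 h, 0 at 84 h, 8 with CLA at 108 h and 9 at 132 h.

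Dehydrogenases, Hadhb and Cpt1b were lower with estrogen than in controls at 60 h. Estrogen and its title-number run cannot be told apart here. Of the 9 genes, 0 rose and 5 fell, where 6.49% of 17248 genes changed (4.07% higher, 2.42% lower, or 702 and 417 genes, against 920 and 288 with upper-quartile scaling). Acadl measured 591, 813, 908, 806 and 754 CPM with estrogen, against 929, 1042, 1168, 1047 and 975 CPM in controls. Acadm measured 723, 1003, 979, 1017 and 921 CPM with estrogen, against 1020.3, 1143, 1229.9, 1227 and 1090.2 CPM in controls. Acadvl measured 361, 592, 580.2, 511 and 501 CPM with estrogen, against 599, 679, 743, 718 and 681 CPM in controls. For these 3 dehydrogenases the groups did not overlap, as for 6.34% of all genes tested, although the nearest mice of Acadm and Acadvl lay close together.

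The log2 fold changes with estrogen at 60 h were −0.41 ± 0.09 (SE) for Acadl (adjusted p = 0.0167), −0.42 ± 0.11 for Acadvl (adjusted p = 0.0265) and −0.30 ± 0.09 for Acadm (adjusted p = 0.047). Hadhb fell by 0.32 ± 0.09 (adjusted p = 0.0495) and Cpt1b by 0.60 ± 0.17 (adjusted p = 0.043). The genes that did not pass were Hadha at −0.29 ± 0.10 (adjusted p = 0.084), Cpt2 at −0.13 (adjusted p = 0.292), Cpt1a at 0.17 (adjusted p = 0.494) and Pdk4 at 0.36 ± 0.32 (adjusted p = 0.553). Estrogen mouse 1 was the lowest of its group for Cpt1b, Cpt2, Acadl, Acadm, Acadvl, Hadha and Hadhb and the highest for Cpt1a. These calls were near the threshold: only Acadl passed in all 10 fits that left out a library. The count was 1 without estrogen mouse 1 or 5 or control mouse 3 or 4, 2 without control mouse 2, and 3 without estrogen mouse 3 or 4 or control mouse 5. It was 0 in a fit of the 2 groups alone, and 1 (Acadl, adjusted p = 0.0478) without the libraries with skin signal. The fold changes themselves were close to those above in both: with the 2 groups alone Acadl was at −0.41 (adjusted p = 0.0554), Acadvl at −0.42 (0.0709), Acadm at −0.29 (0.103), Hadhb at −0.31 (0.105) and Cpt1b at −0.60 (0.115).

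At 84 h, 0 of the 9 genes passed with estrogen by edgeR, where 5.42% of 17180 genes changed (3.45% higher, 1.97% lower), and 0 passed by DESeq2. At the looser cut of an unadjusted edgeR p under 0.05 there were 5 of the 9. The share of all genes at that cut was not computed, so the 5 have no background to stand against. Groups were apart for 0 of the 9 genes, against 8.04% of all genes tested. The estimates for Acadl, Acadm and Acadvl, −0.33 ± 0.14, −0.30 ± 0.14 and −0.34 ± 0.15, were near those at 60 h, with adjusted p of 0.188, 0.225 and 0.199. Estrogen mouse 5 carried the highest level of its group for Cpt1b, Acadl, Acadm, Acadvl, Hadha and Hadhb, at 1007 CPM for Acadl against 654 to 865 CPM in the other estrogen mice and 945 to 1109 CPM in controls. Pdk4 measured 609.9, 815, 569.7, 498 and 790.3 CPM with estrogen, against 1113, 787, 413, 1376 and 1773 CPM in controls, a log2 fold change of −0.73 ± 0.34 (adjusted p = 0.229). Its difference between the times, 84 h minus 60 h, was −1.09 ± 0.48 (adjusted p = 0.748). In that test 0 of 9 genes passed by edgeR (0.0056% of 17852 genes called) and 0 by DESeq2. Pdk4 was the 1 gene at an unadjusted edgeR p under 0.05, a cut for which the share of all genes was not computed.

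The CLA and estrogen effects were set against each other within each count table, though they came from different times. CLA at 108 h and estrogen at 60 h differed for 2 of 9 genes (32.1% of 17248 genes), Cpt1a by 1.07 ± 0.19 (SE; adjusted p = 0.000377) and Acadm by −0.35 ± 0.12 (adjusted p = 0.0354). CLA at 132 h and estrogen at 84 h differed for 3 of 9 genes (38% of 17180 genes): Cpt1a by 1.25 ± 0.20 (adjusted p = 8.96e-05), Acadm by −0.58 ± 0.20 (adjusted p = 0.0274) and Hadhb by −0.66 ± 0.22 (adjusted p = 0.0221). Without the libraries with skin signal, the count was 1, Cpt1a, in both contrasts. Without CLA mouse 1 the later contrast called 7 genes. Acadm was the less certain call of the earlier contrast, since 10 of the 20 fits that left out a library lost it (adjusted p up to 0.0684), and the count was 3 without estrogen mouse 1 or control mouse 3 at 60 h. Cpt1b, Cpt2, Acadl, Acadvl, Hadha and Pdk4 did not pass in either contrast.

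In the controls alone, 1 of the 9 genes differed between the 4 times, where 13.4% of 17852 genes did. Control mice at 60 h lay in title-number runs A and B, those at 108 h in A and C, and those at 84 h and 132 h in A, B and C. The test had no term for run, so time and run are partly mixed in it. Hadha (adjusted p = 0.0236) averaged 1337 ± 62.8 CPM at 60 h, 1333 ± 44.7 CPM at 84 h, 973 ± 89.4 CPM at 108 h and 1239 ± 187 CPM at 132 h (SD, n = 5 each). Control means of Cpt1b, Cpt2, Acadl, Acadm, Acadvl and Hadhb were also lowest at 108 h, by 0.26 to 0.53 below 60 h on the log2 scale, but did not pass the test over the 4 times (adjusted p 0.0732 to 0.31). Hadha no longer passed without control mouse 2 at 108 h, nor without the libraries with skin signal. The count was 2 without control mouse 3 at 60 h, control mouse 3 at 84 h or control mouse 1 at 132 h, and 3 with DESeq2. Pdk4 ranged from 279 to 1773 CPM among control mice, with a log2 difference of 1.16 between 84 h and 60 h (adjusted p over the 4 times 0.0604).

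Genes around the 9 enzymes were read from 7 lists. Their calls are read against the shares of all genes given above, and standard errors follow the log2 fold changes. Of 14 other genes of mitochondrial beta-oxidation, all 14 fell with CLA at both times, with a median log2 fold change of −0.47 at 108 h and −0.70 at 132 h. Echs1, the enoyl-CoA hydratase of short chains, fell by 0.65 ± 0.08 at 108 h (adjusted p = 1.79e-06), to 253 ± 18.7 CPM with CLA against 398 ± 34.6 CPM in controls. Etfa, a subunit of the flavoprotein that takes electrons from the dehydrogenases, fell to 312 ± 15.7 CPM with CLA against 455 ± 40.7 CPM in controls. At 132 h the dehydrogenases Acad11 (by 1.48 ± 0.16) and Acad12 (by 1.10 ± 0.11) fell furthest among the named genes of this list. With estrogen 4 of the 14 fell at 60 h, among them Etfdh (−0.47 ± 0.11), Eci1 (−0.36 ± 0.10) and Etfa (−0.34 ± 0.08), and 1, Acad11, at 84 h (−0.61 ± 0.16).

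Peroxisomal oxidation, where chain shortening of very long and branched chains begins, gave a more mixed picture with CLA at 108 h than at 132 h. The median log2 fold changes were −0.26 and −0.66. Of its 17 genes, with CLA 8 fell and 1 rose at 108 h, and at 132 h 14 fell and 1 rose. Phyh, which starts the breakdown of phytanic acid, fell to 103 ± 8.40 CPM with CLA against 174 ± 16.8 CPM in controls at 108 h. The transporter Abcd2 fell by 0.89 ± 0.12 at 108 h and by 1.05 ± 0.09 at 132 h, Abcd3 fell by 0.56 ± 0.10 at 108 h, and the sterol carrier Scp2 fell by 0.95 ± 0.10 at 132 h. With estrogen 1 of the 17 fell at each time, Phyh at 60 h (−0.33 ± 0.09) and Ehhadh, the peroxisomal bifunctional enzyme, at 84 h (to 66.7 ± 3.55 CPM with estrogen against 135 ± 56.0 CPM in controls).

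Of 5 other genes of the carnitine shuttle, 3 fell and 1 rose with CLA at each time. Crat, the carnitine acetyltransferase, fell by 0.56 ± 0.09 at 108 h and 0.88 ± 0.13 at 132 h, the carnitine carrier Slc25a20 fell by 0.42 ± 0.11 at 108 h, and Crot, the peroxisomal octanoyltransferase, fell by 0.34 ± 0.05 and 0.52 ± 0.10. Cpt1c, a relative of Cpt1a known from neurons, was the gene that rose, to 15.8 ± 1.57 CPM with CLA against 9.81 ± 1.06 CPM in controls at 132 h. With estrogen at 60 h, Crot (−0.21 ± 0.05) and Slc25a20 (−0.44 ± 0.11) fell, and 0 of 5 passed at 84 h.

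Around pyruvate dehydrogenase, the target of Pdk4, 6 of 9 genes fell and 2 rose with CLA at 108 h, with 7 lower and 2 higher at 132 h. Pdha1, the catalytic subunit of the complex, fell to 209 ± 47.4 CPM with CLA against 463 ± 66.9 CPM in controls at 108 h, and to 209.8 ± 55.2 CPM against 577 ± 93.5 CPM at 132 h. The inhibiting kinase Pdk1 fell by 0.99 ± 0.11 and 1.32 ± 0.11, and the phosphatase Pdp2, which reverses them, by 1.08 ± 0.09 at 132 h. Pdk2 fell by 0.60 ± 0.09 at 108 h. The kinase Pdk3 (0.69 ± 0.15 and 0.83 ± 0.14) and the phosphatase Pdp1 (0.30 ± 0.08 and 0.48 ± 0.09), picked for naming after their values were seen, were the genes that rose. With estrogen, Pdp2 fell at 60 h (−0.61 ± 0.14) and 84 h (−0.39 ± 0.09), and Pdk2 at 60 h (−0.33 ± 0.09).

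Of 18 regulators, CLA lowered 9 at 108 h and 15 at 132 h, with 0 higher at either time. Those with the smallest p included Acacb, which makes the malonyl-CoA that restrains carnitine palmitoyltransferase 1. It fell to 395 ± 34.1 CPM with CLA against 707 ± 89.9 CPM in controls at 108 h, and to 295 ± 59.9 CPM against 937 ± 133 CPM at 132 h. Acaca, its cytosolic relative, fell by 1.72 ± 0.30 at 108 h. Sirt3, a mitochondrial deacetylase, fell by 0.56 ± 0.10 and 0.94 ± 0.12, and the PPAR partner Rxra by 0.76 ± 0.09 at 132 h. With estrogen, 1 of the 18 was lower at 60 h, Acacb (−0.42 ± 0.12, adjusted p = 0.0483), and 0 at 84 h.

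Other PPAR targets did not move as a block with CLA. Of 12 tested at 108 h, 3 rose and 2 fell, and the 11 tested at 132 h gave the same counts. Plin2, a coat protein of lipid droplets, rose to 1434 ± 195 CPM with CLA against 419 ± 43.3 CPM in controls at 108 h, and Ucp2, a mitochondrial carrier, to 791 ± 107 CPM against 284 ± 34.6 CPM. Fgf21, a hormone of fasting and stress, rose to 3.92 ± 1.25 CPM against 0.215 ± 0.06 CPM in controls at 108 h. Ucp3, by contrast, fell by 1.78 ± 0.15 at 132 h. With estrogen 0 of 12 passed at 60 h by edgeR and 1 of 11 at 84 h, Vnn1, which fell by 1.19 ± 0.24. Of 10 tested genes for fatty acid uptake and activation, 3 fell and 1 rose with CLA at 108 h, with 4 lower and 1 higher at 132 h. Fabp3, a fatty acid carrier of oxidative tissue, fell to 18.3 ± 1.52 CPM with CLA against 36.9 ± 3.69 CPM in controls at 108 h, and by 1.45 ± 0.35 on the log2 scale at 132 h. Among the acyl-CoA synthetases, Acsl1 fell by 0.32 ± 0.12 at 108 h, Acsl4 rose by 0.39 ± 0.09 and 0.75 ± 0.13, and Slc27a2 fell by 2.59 ± 0.48 at 132 h. With estrogen 1 of 10 fell at 60 h, Fabp3 (−0.76 ± 0.22, adjusted p = 0.0491), and 0 at 84 h.

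**Figure D4:**
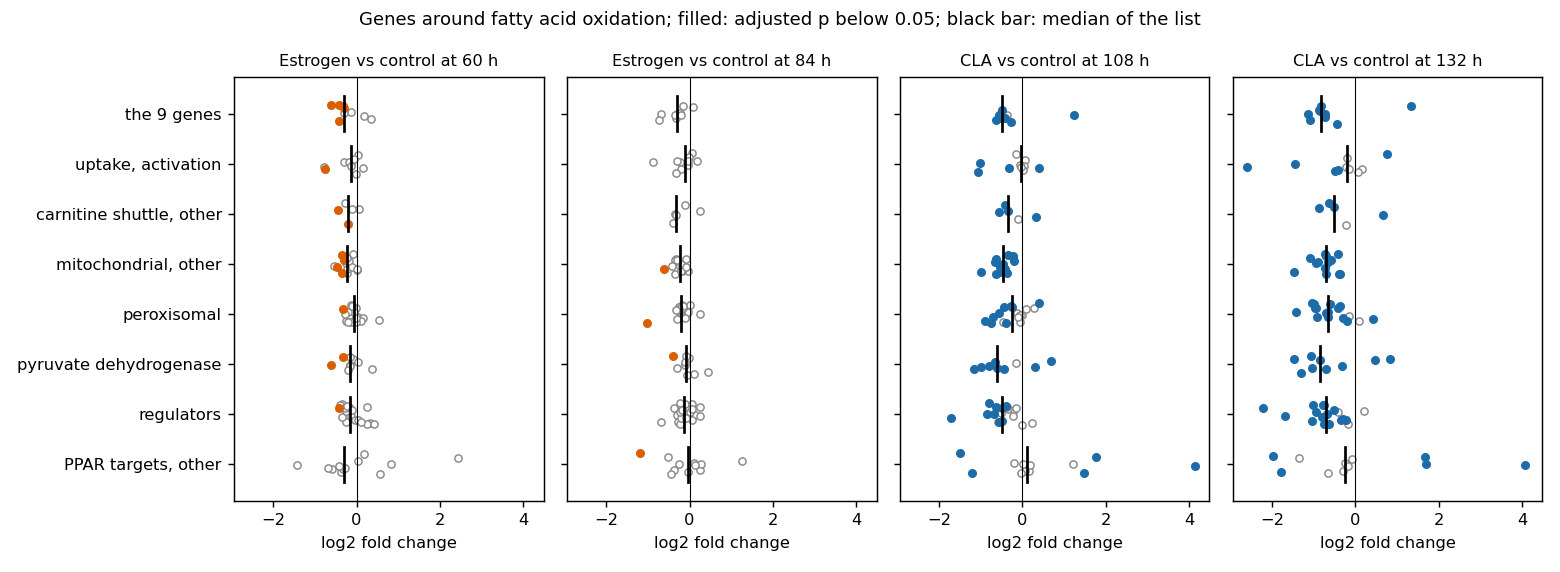
Log2 fold change of treated over control for every tested gene of the 9 enzymes and 7 lists around them (points; filled where the adjusted p passed 0.05; black bars, list medians) in the 4 treatment comparisons. All 14 other mitochondrial genes lie below 0 with CLA, while the PPAR targets lie on both sides.

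Markers of several cell types moved with the CLA comparisons, and their part in the results was not tested. Of 12 adipocyte markers, 11 fell at each time (median log2 fold change −0.95 and −1.28), with none of the 12 at 0 in any library. Their summed level was 17249 to 23103 CPM with CLA against 30750 to 39670 CPM in controls at 108 h, and 14915 to 22307 CPM against 30793 to 42109 CPM at 132 h. All 12 macrophage markers rose (median 1.98 and 2.94), to sums of 3102 to 4665 CPM with CLA against 758 to 1543 CPM in controls at 108 h, and 3063 to 6253 CPM against 459 to 1001 CPM at 132 h. None of these was at 0 in any library either. Counts from genes of the mitochondrial genome also moved: they made up 4.76% to 6.73% of a library with CLA against 7.25% to 8.64% in controls at 108 h, and 4.13% to 7.91% against 7.75% to 9.67% at 132 h.

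Of 9 tested brown fat markers, 5 fell with CLA at each time, and the sums were 882 to 1264 CPM with CLA against 1539 to 1738 CPM in controls at 108 h, and 662 to 2036 CPM against 1281 to 2659 CPM at 132 h. Of the genes on this list, Ucp1 was present at 272 to 1506 CPM across the 40 libraries, and Zic1 was at 0 in 36 of them. CLA mouse 1 at 132 h had the highest levels of Cpt1b, Cpt2, Acadl, Acadm, Acadvl, Hadha and Hadhb in its group and the lowest of Cpt1a. This mouse also had the highest brown fat, adipocyte and skeletal muscle sums and the lowest macrophage and epithelial sums of that group. Its muscle sum was 54.9 CPM, against 7.06 to 9.50 CPM in the other CLA mice at that time. Skin markers fell, 10 of 13 tested at 108 h and 14 of 16 at 132 h, with sums of up to 26.9 and 31.0 CPM with CLA against up to 2437 and 3095 CPM in controls, and Krt2, Flg2 and Tchh were at 0 in 25, 22 and 21 of the 40 libraries. Of the skeletal muscle markers, 8 of 11 fell at 108 h and 2 of 12 at 132 h, with sums of 6.65 to 8.66 CPM with CLA against 5.93 to 164 CPM in controls, and 7.06 to 54.9 CPM against 5.46 to 1047 CPM. Of the 12 epithelial markers, 1 fell at 108 h, with 2 lower and 1 higher at 132 h and sums of 23.1 to 268 CPM with CLA against 102 to 554 CPM in controls, and 40.4 to 315 CPM against 34.3 to 878 CPM.

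Hadha was also set against the adipocyte markers within each library. Its log2 CPM minus the mean log2 CPM of the adipocyte list averaged −0.06 ± 0.28 with CLA and −0.62 ± 0.01 in controls at 108 h, and 0.15 ± 0.13 with CLA and −0.37 ± 0.11 in controls at 132 h (SD, n = 5 each). With estrogen the difference was −0.59 ± 0.33 against −0.22 ± 0.10 in controls at 60 h, and −0.48 ± 0.35 against −0.30 ± 0.10 at 84 h. With CLA the adipocyte list had lower median log2 fold changes (−0.95 at 108 h and −1.28 at 132 h) than Hadha (−0.43 and −0.72). The higher difference with CLA therefore does not mean that Hadha rose.

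Beside the estrogen results, the epithelial markers moved: 9 of 12 rose at 60 h and 5 of 12 at 84 h. Their sums were 189 to 482 CPM with estrogen against 11.5 to 139.6 CPM in controls at 60 h, and 370.3 to 664 CPM against 16.3 to 194 CPM at 84 h. Adipocyte markers were called for 1 of 12 (higher) and 0 of 12, with sums of 32380.0 to 44241 CPM with estrogen against 33527 to 39702 CPM in controls at 60 h, and 30502 to 37197 CPM against 34458 to 39967 CPM at 84 h. Of 9 tested brown fat markers 1 fell at each time, with sums of 1215 to 2410 CPM with estrogen against 2026 to 2543 CPM at 60 h, and 1342 to 2368 CPM against 1960.3 to 2582 CPM at 84 h. Estrogen mouse 1 at 60 h had the lowest of the brown fat sums of its group. Estrogen mouse 5 at 84 h, the mouse with the high Acadl, had the highest. Of 12 macrophage markers, 1 fell at 60 h and 0 passed at 84 h, with sums of 607 to 1754 CPM with estrogen against 608 to 1668 CPM in controls, and 620.0 to 766 CPM against 696 to 1285 CPM. Mitochondrial-genome counts made up 6.16% to 8.31% with estrogen against 8.88% to 10.6% in controls at 60 h, and 6.35% to 9.23% against 8.29% to 8.60% at 84 h. The part of these values in the estrogen results was not tested.

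Across the 40 libraries, 7 of the 9 genes shared a pattern. Pearson's r of log2 CPM lay between 0.87 and 0.98 for every pair of Cpt1b, Cpt2, Acadl, Acadm, Acadvl, Hadha and Hadhb, between −0.68 and −0.90 for Cpt1a with each of them, between 0.45 and 0.51 for Pdk4 with each of the 7, and −0.29 for Pdk4 with Cpt1a. For the deviations from group means, r was 0.69 to 0.95 among the 7, −0.15 to −0.52 for Cpt1a with them, 0.30 to 0.45 for Pdk4 with them, and 0.28, of the opposite sign, for Pdk4 with Cpt1a. These values describe libraries that fall into CLA and other groups, and the mice of a group share their treatment. Among 12306 other genes, those most like the members were mostly mitochondrial. Acadm was most like Acat1 (r = 0.987), Acadl like Etfa (0.984), Hadhb like Decr1 (0.981), Acadvl like Hadh (0.981), Hadha like Ogdh (0.978), Cpt1b like Etfdh (0.956) and Cpt2 like Hsd17b4 (0.951), with r of 0.883 to 0.965 for the deviations from group means. For Cpt1a, the genes most like it included Specc1 (0.978) and Rab7b (0.965), with r of 0.855 and 0.716 for the deviations from group means. Pdk4 was most like Pck1 (0.876), the gluconeogenic and glyceroneogenic carboxykinase.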

How the data were processed

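Whole-number counts per gene come from a pair of tables deposited by the authors, each with 20 libraries: the 60 h groups share theirs with the 108 h groups, and the 84 h groups with the 132 h groups. RPKM values, deposited by the authors in a matching pair, served to set genes against each other and in alternatives. The build was GRCm38 per the submitters' processing notes, and the libraries were stranded and from poly(A) RNA per the labels' protocols. Aligner, counter and gene model: not given in the sources used here. Counts and RPKM need not rest on the same reads, as Cpt1b shows.

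Treatment effects were fitted to all genes of a count table with the quasi-likelihood test of edgeR (version 4.0.16, in R 4.3.3; TMM scaling, robust fit). The filter was filterByExpr with a minimum count of 10 and a minimum total of 15. P-values were Benjamini-Hochberg adjusted over all genes tested, with a threshold of 0.05, and a gene "rose" or "fell" where it passed. Differences between times, and controls across times, came from 1 fit of 40 libraries. SE is the size of the log2 fold change over the root of the F statistic, and 95% intervals span 1.96 SE on either side. Depth was about 18183700 to 40026800 counts per library. P-values set the group difference against the spread between mice, estimated over all groups of a fit. For estrogen, they cannot separate the treatment from its title-number run. Alternatives were other scalings and filters, DESeq2 1.42.0, limma 3.58.1 on log2(RPKM + 0.1) and log2(RPKM + 1), the 2 groups alone, runs of title numbers, and leaving out libraries. CPM and RPKM set side by side across the tables were scaled per library, and the 40-library TMM factors span both tables.

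The 9 genes, the gene lists and the markers were chosen with earlier results of these data known. All 9 are named. Of each other list, the 3 called genes with the smallest p are named in each comparison. Likeness was ranked by Pearson's r of log2 CPM among genes tested in both tables, at a mean log2 CPM of 1 or more, without members and predicted genes, and the leading genes are named. A few genes that these rules or lists include are not reported here by name.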

Additional observations from a re-analysis of the deposited data

Results flagged for a closer look

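Acadvl measured 727.191 CPM in control mouse 1 at 84 h, against 626 to 645 CPM in the other 4 controls at that time. The gap to its neighbour was 0.816 of the group's range, above Dixon's 95% critical value of 0.71 for 5 samples. In all, 72 groups of 5 values were examined, and chance alone marks about 5% of such groups. Leaving this library out changed no call for Acadvl with estrogen at 84 h.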

How the results depend on the processing

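In the 4 treatment comparisons and the 4 differences between effects, 1818 values of single genes were recomputed under alternatives: 1687 kept their direction and side of the threshold, 81 lost the call, 18 gained it, 32 that passed under neither setting changed sign near 0, and 0 called values changed sign. Of those 32, 27 were in the estrogen effect at 84 h minus 60 h (7 genes, −0.20 to 0.10, adjusted p 0.981 or more) and 5 were Cpt1b in CLA at 108 h against estrogen at 60 h (−0.06 to −0.02, in place of 0.04). With estrogen at 60 h, 5 calls became 3 with upper-quartile scaling, 2 with no filter on low counts, 0 with the 2 groups alone and 1 without the libraries with a skin mean above 0 (an alternative chosen after seeing the data). For CLA at 108 h, 8 calls became 4 within the lowest title-number run, and for CLA at 132 h, 9 became 1 within that run and 1 within the next (also added after seeing the data), in groups of 1 to 3 mice. The lone CLA mouse of the next run is assumed to vary as its 2 controls do, and the share of all genes passing within a run was not computed. CLA at 108 h against estrogen at 60 h gave 1 call with no filter and 1 without the skin libraries, in place of 2. CLA at 132 h against estrogen at 84 h gave 5 with upper-quartile scaling and 1 without the skin libraries, in place of 3. Controls across times gave 3 with DESeq2, 2 without the library above the widest skin gap and 0 without all skin libraries, in place of 1. Leaving out each library in turn gave 1 to 4 calls for estrogen at 60 h, 0 to 0 at 84 h, 8 to 8 for CLA at 108 h, 9 to 9 at 132 h, 0 to 0 for the change of the CLA and of the estrogen effect with time, 1 to 3 and 2 to 7 for CLA against estrogen, and 0 to 2 for the controls. Upper-quartile scaling shifted the calls over all genes with estrogen from 702 higher and 417 lower to 920 and 288 at 60 h, from 592 and 339 to 712 and 231 at 84 h, and with CLA from 4293 and 3968 to 3592 and 4907 at 108 h and from 4638 and 4975 to 4151 and 5618 at 132 h. Without the skin libraries these calls were 366 higher and 147 lower with estrogen at 60 h, 201 and 8 at 84 h, and with CLA 3424 higher and 2941 lower at 108 h, then 3676 higher and 3489 lower at 132 h. The cause of these shifts was not tested. No paired analysis was possible because the labels give no replicate numbers that tie mice across groups. Cpt1b, at 2.28 to 10.8 CPM, had the lowest counts of the 9 genes, so its values carry the most counting error.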
